A study of Drosophila melanogaster with 24 samples.

Results

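The 100 long noncoding RNAs (lncRNAs) with the highest mean level in 2-4 h Drosophila embryos were followed through maternal knockdown of the histone deacetylase HDAC3 and its rescue. Genes whose FlyBase symbol carries the lncRNA prefix were ranked by CPM (the count per M counts of the library total) averaged over all 24 libraries, and the 100 highest of 1795 were kept, with the dosage compensation RNAs roX1 and roX2 left aside. The members were thus chosen by their mean CPM, and levels and ranks are a description. The prefix is dropped from symbols here. All 100 members passed the filter on low counts.

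lncRNAs are transcripts with little or no coding capacity. Some act as RNAs, some are precursors of microRNAs or small nucleolar RNAs, and for others it is the act of transcription, or a regulatory element in the DNA they cover, that affects a neighbouring gene. In the blastoderm embryo the intergenic regions of the Hox clusters are transcribed in domains along the body axis. HDAC3 is the catalytic subunit of the SMRTER (NCoR/SMRT) corepressor complex and removes acetyl groups from histones.

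Whole embryos of 6 genotypes were sequenced, with 4 libraries each. HDAC3 shRNA embryos came from tub-GAL4/shRNA HDAC3 and control embryos from tub-GAL4/+. The 4 rescue genotypes carried tub-GAL4, the same hairpin and a transgene of HDAC3 that the hairpin does not target. The transgene was wild type in rescue WT and held the named substitutions in rescue HEBI, rescue K26A and rescue Y303F. The paper reports that HDAC3 was only partly restored in rescue WT. In rescue Y303F it found RNA from the endogenous HDAC3 locus beside that of the transgene. It proposes that wild-type HDAC3 is made in those embryos, so rescue Y303F values cannot be assigned to the mutant alone. The mutants were designed after mammalian HDAC3 to weaken catalysis, HEBI also to lose binding to SMRTER. Every genotype, control included, carried the maternal tub-GAL4 driver, so knockdown took place in the female germline. Each transgene was tested as 1 insertion at a single landing site, and the hairpin stock carried X-linked markers (y sc v sev).

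The libraries held 9.99 to 26.6 M counts, with a median of 19.6 M. HDAC3 itself was listed at 0 counts in all 24 libraries, so the knockdown could not be read from the table. Of 9 maternal and early embryo markers 8 were found, at a summed 554 to 1323 CPM. Libraries separated by replicate number. After removing genotype means, differently numbered libraries of different genotypes correlated at a median of 0.40 within replicates 1 and 2 or within 3 and 4. Across these sides the median was -0.51. The first principal component held 48.1% of variance. No label says what a replicate number marks. Same-numbered libraries deviated together in all 60 pairs, so values from a blocked fit (replicate number as a term) are given where they change a call. Unless stated otherwise, levels are CPM after TMM scaling (trimmed mean of M-values), ± is an SD over 4 libraries, and calls are edgeR calls at an adjusted p of 0.05 or less and at least a 2-fold change. Replicates are described in the methods as biological, each from its own collection of embryos. In whole embryos, fewer cells of a type and less RNA per cell cannot be told apart.

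A few lncRNAs made up most of the pool. CR42862, at a mean 467 CPM, gave 38.6% of the summed level of the 100, and the 10 highest gave 77.8%. The members together held 90.4% to 93.8% of all lncRNA counts of a library, while 441 of the 1795 lncRNAs had no count in any library and 86 reached a mean of 1 CPM. At the limit of the ranking stood CR45900 (0.874 CPM) and Irar (0.848 CPM) inside, and CR43870 (0.844 CPM) and CR43962 (0.824 CPM) outside.

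**Figure D1:**
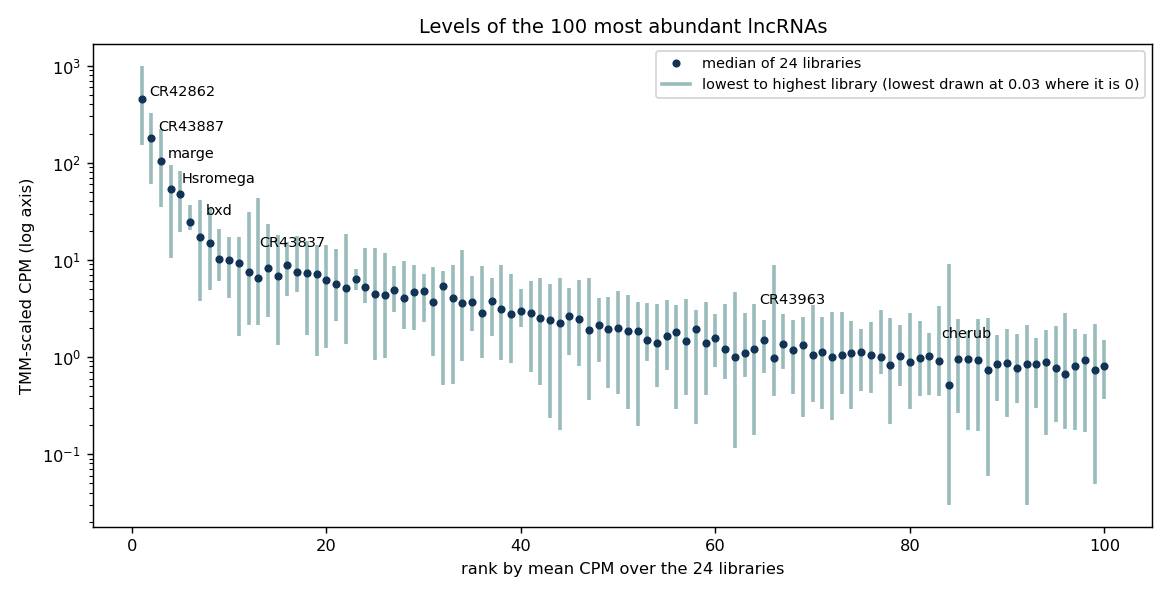
Level of each of the 100 lncRNAs by rank (x axis, rank by mean CPM; y axis, TMM-scaled CPM on a log axis). Points are medians of 24 libraries and bars run from the lowest to the highest library, so the drop from CR42862 (median 451 CPM) to Irar at rank 100 can be followed.

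The 10 most abundant lncRNAs lie on all large arms but 2L (coordinates from BDGP6.54, the dm6 assembly). CR42862 occupies 3L:224106-230964 (+), with 5485 exon bases of which 246 are shared with CG33229 on the same strand. CR43887 lies at 3L:11693135-11693661 (+) and averaged 175 CPM. Per kilobase of exon it was the most abundant member, at 333 CPM per kb, followed by marge (3L:14976626-14977631, -) at 114 and CR42862 at 85.2 CPM per kb.

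Hsromega (3R:21296127-21317836, +) is the heat-shock lncRNA that organizes nuclear omega speckles. It averaged 52.0 CPM but only 2.40 CPM per kb, over 21710 annotated exon bases. CR30055 (2R:12589239-12591395, +) lies in an intron of Sin3A, the scaffold of another deacetylase complex, and averaged 46.5 CPM. CR42549 (3R:9548104-9551806, -) averaged 25.2 CPM and shares exon bases with mura.

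bxd (3R:16742125-16773189, -) is the RNA from the bithoraxoid region upstream of Ubx, and averaged 20.5 CPM. CR43264 (X:5831898-5832215, -), in an intron of CG15765, averaged 18.1 CPM from 318 exon bases. CR42861 (X:13744928-13745476, +) averaged 10.7 CPM. CR44504 (2R:19659645-19661847, -), the host of the mir-309 cluster that is transcribed at the onset of zygotic transcription and helps clear maternal mRNAs, averaged 10.2 CPM.

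Members had longer exons than lncRNAs in general, with a median of 1211 bases against 615, and 41% had 1 exon against 68.7%. CPM is not corrected for length. By position, 48 members shared no exon with another gene and lay in no intron of a protein-coding gene, 18 shared exon bases with a gene on the opposite strand, 17 with a gene on the same strand, and 17 lay inside an intron. The chromosomes were unevenly represented, with 16 members on 2L, 19 on 2R, 19 on 3L, 27 on 3R and 19 on X, whereas 27.4% of all lncRNAs lie on 2L and 12.3% on X.

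lncRNAs covered by exons of another gene, on either strand, mostly had no counts. Of the lncRNAs whose exons lie entirely inside opposite-strand exons, 16 of 16 were at 0, and of those entirely inside same-strand exons 10 of 11 (90.9%), beside 380 of 1548 (24.5%) of those that share none. A member that shares exons may thus be measured mainly on its remaining bases, and sense and antisense transcription could not be separated. Reads of unspliced RNA of a host gene that fall on an intronic lncRNA's exons are counted to the lncRNA, and their part was not tested.

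Some members host small RNAs. The span of 11 members holds a microRNA gene on the same strand. These include iab4 (mir-iab-4) and iab8 (mir-iab-8), transcribed across each other in the bithorax complex, CR42651 (mir-10) in the Antennapedia complex, CR43650 (mir-8), CR45916 (mir-9a) and CR31044 (mir-279 and mir-996). CR42491 holds a snoRNA gene.

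In HDAC3 shRNA embryos against control, 6 of the 100 members rose and 2 fell. CR43837, CR43963, CR44619, CR43900, CR44331 and CR44691 were higher, and cherub and CR31781 were lower. Control replicate 3, a library of this contrast, gave cherub its place among the members, so its call is no support. Of all 10003 tested genes, 1.4% were called higher and 6.97% lower, so members were called higher in a larger share and lower in a smaller share than genes in general. The median log2 fold change was 0.08 over the members and 0.01 over all genes, or -0.12 and -0.19 when libraries were scaled by their totals alone. With the replicate block 11 members were called higher and 11 lower, against 2.76% and 17.3% of all genes.

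CR43837 (X:6995882-6997799, -) rose the most. It had 17.1, 31.3, 25.6 and 20.2 CPM in HDAC3 shRNA replicates 1 to 4, against 4.09, 4.65, 3.68 and 2.13 CPM in control. The lowest knockdown library was above the highest control library by more than 3-fold, and the log2 fold change was 2.69 (SE 0.35, adjusted p = 6.71e-05, edgeR). The call held in all 24 fits that left out 1 library. CR43837 ranked 12th overall at 9.42 CPM, shares no exon with another gene, and lies 873 bases from the divergent Inx2, a gap junction gene. Inx2 did not pass the test (log2 fold change 0.15, adjusted p = 0.839).

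CR43963 (X:12717624-12730953, -) lies within the span of Smr, the gene for SMRTER, on the same strand. It is among the members that share exon bases with a same-strand gene. Its levels were 2.27, 8.87, 2.70 and 2.51 CPM in HDAC3 shRNA, against 0.394, 1.01, 0.906 and 0.746 CPM in control. Replicate 2 of the knockdown stood far above the others, but all 4 exceeded every control library, with a log2 fold change of 2.41 (SE 0.47, adjusted p = 0.00278). Without that library the fitted log2 fold change was 1.67 and the call held.

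CR44619 (X:12751867-12754571, +) was even in both groups. It had 1.87, 1.61, 2.36 and 1.72 CPM in HDAC3 shRNA, against 0.394, 0.536, 0.604 and 0.480 CPM in control, a log2 fold change of 1.90 (SE 0.36, adjusted p = 0.00239). These levels stand for 32 to 48 counts per knockdown library and 8 to 10 per control library. CR44331 (3R:8112699-8114003, -), inside an intron of puc on the opposite strand, had 1.87, 2.19, 1.42 and 2.31 CPM in HDAC3 shRNA, against 0.542, 0.954, 0.724 and 0.533 CPM in control. The difference was 1.498 on the log2 scale (SE 0.36, adjusted p = 0.0129). Both calls held without any 1 library, but in replicates 3 and 4 alone CR44331 was not called (1.53, adjusted p = 0.122).

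The other 2 higher members were closer to the threshold. CR43900 (2R:12259409-12260813, +), which shares 199 of its 737 exon bases with Cam, the calmodulin gene, had 9.39, 12.7, 5.25 and 6.19 CPM in HDAC3 shRNA, against 3.59, 4.59, 1.27 and 1.28 CPM in control. The groups did not overlap, and the log2 fold change was 1.64 (SE 0.52), yet an adjusted p of 0.0494 was lost in 19 of 24 fits that left out 1 library (0.0506 to 0.202). It was also lost with DESeq2's size factors (0.0523), library totals alone (0.0531) or no filter on low counts (0.0692). With the block it was 2.63e-06. CR44691 (X:17828096-17831094, -), which shares exon bases with CG6398 on the opposite strand, had 2.22, 1.95, 1.18 and 2.27 CPM in HDAC3 shRNA, against 0.689, 1.13, 0.966 and 0.799 CPM in control. Its log2 fold change of 1.08 (SE 0.31, adjusted p = 0.0272) was no longer called without control replicate 1, 3 or 4 or HDAC3 shRNA replicate 1, 2 or 4 (adjusted p 0.0693 to 0.0799), nor with library totals alone (0.86, adjusted p = 0.0656) or no filter on low counts (1.09, 0.0536).

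Of the lower members, cherub (3R:11247631-11256123, -) is known from larval brain tumours, where it accumulates in neural stem cells. It had 0, 0.292, 0.737 and 0.196 CPM in HDAC3 shRNA, against 0.935, 0.775, 9.12 and 1.39 CPM in control. The control mean rested on replicate 3, and without it the log2 fold change of -3.28 (SE 0.80, adjusted p = 0.0135) became -1.74 with an adjusted p of 0.144. The 0 in replicate 1 allows up to 0.151 CPM at 3 counts, counting error only. CR31781 (2L:16869346-16878300, +) had 0.117, 0.341, 0.687 and 0.784 CPM in HDAC3 shRNA, against 0.935, 3.64, 4.47 and 3.20 CPM in control, a log2 fold change of -2.63 (SE 0.70, adjusted p = 0.0206) that was not called without control replicate 3 or HDAC3 shRNA replicate 1 or 2 (0.0619 to 0.0730).

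Markers of older embryos were also lower in HDAC3 shRNA than in control, the 2 genotypes set side by side here. The summed level of 10 cuticle and muscle genes was 2.39, 27.1, 69.9 and 28.6 CPM in HDAC3 shRNA, against 69.9, 296, 1024 and 250 CPM in control, highest in the control library where cherub was highest. The summed level of 10 early blastoderm genes was also lower in HDAC3 shRNA replicates 1 and 2, at 2113 and 1616 CPM against 4111 and 3483 CPM in control. In replicates 3 and 4 it was higher, at 982 and 1601 CPM against 939 and 898 CPM. The part of embryo age in the cherub and CR31781 values was not tested.

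**Figure D2:**
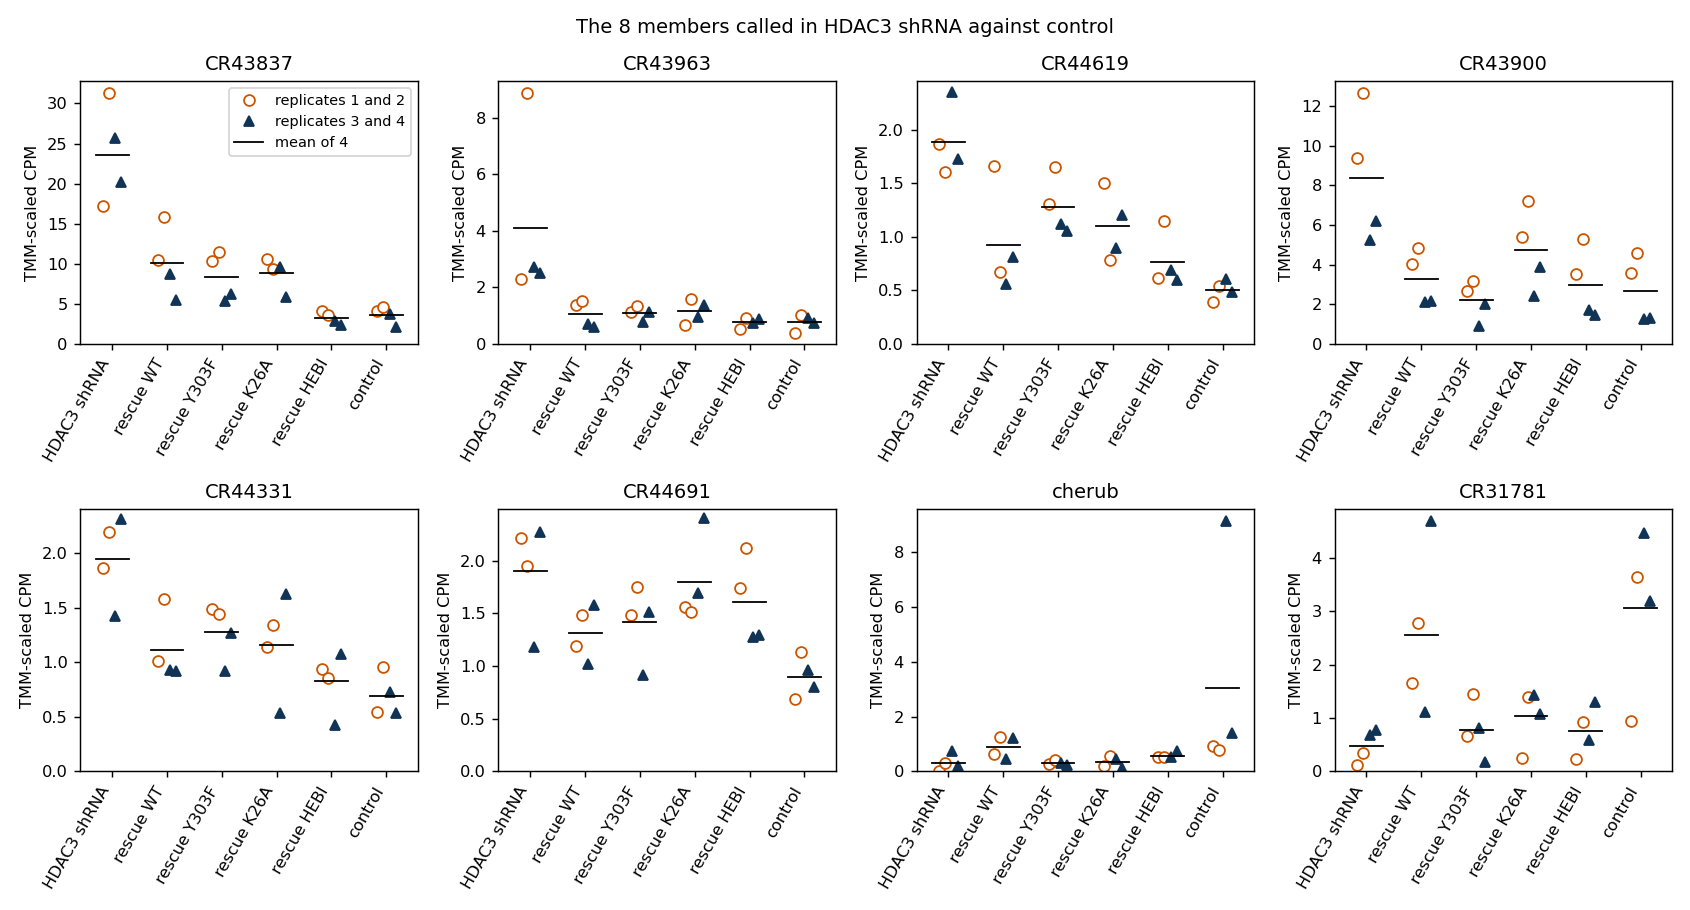
TMM-scaled CPM (y axis, from 0) of the 8 called members in the 6 genotypes (x axis), with a point per library, open circles for replicates 1 and 2, filled triangles for replicates 3 and 4, and a line at the mean of 4. CR43837 lies at 17.1 to 31.3 CPM in HDAC3 shRNA, at 2.31 to 4.05 CPM in rescue HEBI and at 2.13 to 4.65 CPM in control.

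Non-overlap gave a similar list. The 4 HDAC3 shRNA and 4 control libraries did not overlap for 7 members that were higher and 3 that were lower, where 4.95% and 8.67% of all genes did so. The 2 beyond the called set were CR43973, inside an intron of Ctps, and CR43241. CR43973 had 15.9, 23.6, 13.9 and 10.2 CPM in HDAC3 shRNA, against 7.53, 6.80, 3.92 and 2.72 CPM in control. The log2 fold change was 1.60 (adjusted p = 0.0604), and 1.67 with the block (adjusted p = 1.28e-06, called). CR43241 had a log2 fold change of -0.89 (adjusted p = 0.182).

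Of the 6 higher members, 4 lie on X (CR43837, CR43963, CR44619 and CR44691). Among all tested X-linked genes 1.78% were called higher, and between 1.11% and 1.57% on each of 2L, 2R, 3L and 3R. The X chromosome of the hairpin stock and the hairpin itself cannot be told apart in this contrast.

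Hsromega, CR44504, CR43264 and mimi were not called as above but were among the 11 members called lower with the block. The block also called 1 of the 4 bithorax complex members lower and 1 of the 7 Antennapedia complex members higher (17.3% and 2.76% of all genes). Hsromega had 10.4, 20.6, 45.1 and 54.2 CPM in HDAC3 shRNA, against 53.8, 58.7, 57.8 and 72.7 CPM in control, with the gap in replicates 1 and 2. Its log2 fold change was -0.90 (adjusted p = 0.283), and -1.18 with the block (adjusted p = 6.40e-04). CR44504, the mir-309 cluster host, had 4.02, 4.92, 5.99 and 9.33 CPM in HDAC3 shRNA, against 17.1, 13.7, 8.81 and 10.7 CPM in control, a log2 fold change of -1.05 (adjusted p = 0.0603) and of -1.12 with the block (adjusted p = 0.00457). It was also called by DESeq2 (-1.07, adjusted p = 0.0146) and by edgeR with DESeq2's size factors (-1.07, 0.0458) or library totals alone (-1.21, 0.0341). CR43264 was at -0.98 (adjusted p = 0.311) and at -1.15 with the block (adjusted p = 1.79e-04). mimi was at -0.99 (adjusted p = 0.353) and at -1.20 with the block (adjusted p = 0.00695).

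The remaining named and abundant members did not pass the test at 2-fold. CR42862 had 166, 160, 808 and 563 CPM in HDAC3 shRNA, against 394, 229, 663 and 553 CPM in control, and the groups overlapped (log2 fold change -0.12, adjusted p = 0.921). CR43887 was at -0.79 (adjusted p = 0.212), marge at -0.22 (0.8292), CR30055 at 0.48 (0.593), CR42549 at 0.34 (0.190), noe at 0.19 (0.835) and Irar at 0.83 (0.166), all adjusted p-values from edgeR. CR42861 passed the p threshold but not the fold, at 0.89 (adjusted p = 0.0444). Without the block edgeR called none of the 11 microRNA hosts (median log2 fold change -0.11). The block called Hsromega and CR44504 lower, and CR44504 was also called under the other settings given above.

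The nearest protein-coding gene could be tested for 94 members, 86 genes in all, and 6 of these were called in HDAC3 shRNA against control, beside 8.37% of all tested genes in either direction. In 3 pairs member and neighbour were both called, each time higher. Smr averaged 2994 ± 1875 CPM in HDAC3 shRNA and 478 ± 282 CPM in control, a log2 fold change of 2.65 (SE 0.72, adjusted p = 0.0225), beside 2.41 for CR43963. CR43963 lies within Smr on the same strand at a far lower level, and the part of Smr reads in its count was not tested. CG4004, 2082 bases from CR44619, averaged 210 ± 28.5 CPM in HDAC3 shRNA and 45.6 ± 6.55 CPM in control (2.20, SE 0.16, adjusted p = 3.21e-08), beside 1.90 for CR44619.

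The third pair was CR44331 and puc, which encodes the phosphatase that limits JNK signalling. puc averaged 143 ± 67.1 CPM in HDAC3 shRNA and 44.8 ± 16.2 CPM in control, a log2 fold change of 1.68 (SE 0.45, adjusted p = 0.0198), beside 1.498 for CR44331. Cam (0.64, adjusted p = 0.0130) and CG6398 (0.47, adjusted p = 0.0164) were higher by under 2-fold, below CR43900 and CR44691, which share exon bases with them. CG5214 next to cherub did not pass the test (0.24, adjusted p = 0.673). Over the 94 pairs the Spearman correlation of the fold changes was 0.27, a description across genes whose reads can share loci and libraries.

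**Figure D3:**
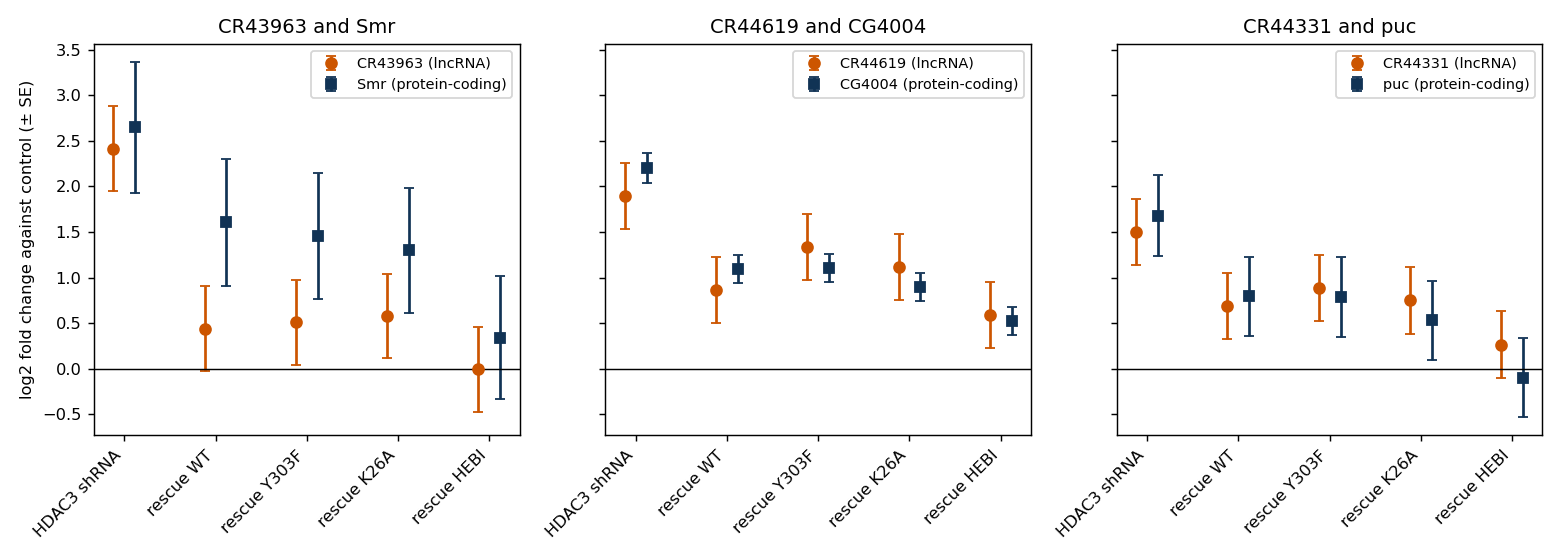
log2 fold change against control ± SE (y axis) of 3 lncRNAs (circles) and their protein-coding neighbours (squares) in the 5 other genotypes (x axis). In HDAC3 shRNA both members of each pair are at 1.498 or more. In rescue HEBI CR43963 is at -0.01, Smr at 0.34, CR44331 at 0.26, puc at -0.10 and CG4004 at 0.52.

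In the rescues CR43837 averaged 10.1 ± 4.36 CPM in rescue WT, 8.31 ± 3.03 in rescue Y303F, 8.84 ± 2.09 in rescue K26A and 3.21 ± 0.771 in rescue HEBI, against 23.6 ± 6.26 in HDAC3 shRNA and 3.64 ± 1.08 CPM in control. Against HDAC3 shRNA it fell in rescue HEBI (log2 fold change -2.87, SE 0.36, adjusted p = 5.94e-05) and in rescue Y303F (-1.51, SE 0.34, adjusted p = 0.0333). The rescue Y303F call was lost without HDAC3 shRNA replicate 2 or 3 or rescue Y303F replicate 1, 3 or 4 (0.0522 to 0.179). In rescue WT it was at -1.22 (adjusted p = 0.0807; with the block -1.30, 2.17e-04, called) and in rescue K26A at -1.41 (adjusted p = 0.105; with the block -1.44, 3.30e-04, called).

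Against control, CR43837 rose in rescue K26A (log2 fold change 1.28, SE 0.34, adjusted p = 0.0349). With rescue K26A replicate 1, 2 or 3, rescue WT replicate 1, HDAC3 shRNA replicate 2 or control replicate 1, 3 or 4 left out it was not called (0.0518 to 0.157). It was at 1.48 in rescue WT (adjusted p = 0.0578; with the block 1.44, 2.78e-04, called), at 1.19 in rescue Y303F (0.107; with the block 1.19, 0.00133, called) and at -0.18 in rescue HEBI (adjusted p = 0.9999). Rescue HEBI against rescue WT gave -1.65 (SE 0.34, adjusted p = 0.0717), which was called with the block (-1.60, adjusted p = 2.41e-04) and by DESeq2 (adjusted p = 0.00136). In that comparison the 4 rescue HEBI libraries (2.31 to 4.05 CPM) lay below the 4 rescue WT libraries (5.42 to 15.9 CPM).

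Against HDAC3 shRNA, CR43963 fell in rescue HEBI (log2 fold change -2.42, SE 0.47, adjusted p = 0.00569) and in rescue WT (-1.97, SE 0.46, adjusted p = 0.0350). The rescue WT call did not hold with any 1 rescue WT library, HDAC3 shRNA replicate 2 or control replicate 4 left out (adjusted p 0.0503 to 0.238), and the rescue HEBI call held in all 24 fits. It averaged 0.760 ± 0.177 CPM in rescue HEBI, 1.04 ± 0.476 in rescue WT and 4.09 ± 3.19 CPM in HDAC3 shRNA. CR44619 in rescue HEBI was at -1.31 against HDAC3 shRNA (adjusted p = 0.0525; with the block -1.32, 0.00392, called).

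Its neighbour CG4004 was also higher than control in the 4 rescues. It passed the p threshold in 3, at log2 fold changes of 1.09 in rescue WT, 1.11 in rescue Y303F and 0.90, under 2-fold, in rescue K26A (adjusted p 8.74e-04, 5.06e-04 and 0.00238). In rescue HEBI it was at 0.52 (adjusted p = 0.184), and with the block at 0.52 (adjusted p = 0.0124), under 2-fold. The 4 rescue HEBI libraries (62.7 to 70.9 CPM) lay above the 4 control libraries (36.5 to 51.8 CPM). CR31781 averaged 2.56 ± 1.58 CPM in rescue WT, 0.757 ± 0.452 in rescue HEBI, 0.482 ± 0.309 in HDAC3 shRNA and 3.06 ± 1.51 CPM in control. Rescue WT against HDAC3 shRNA gave 2.38 (adjusted p = 0.101; with the block 2.47, 0.00302, called). cherub was lower in rescue K26A against control (-3.16, SE 0.80, adjusted p = 0.0287), not called without control replicate 3 or any 1 rescue K26A library (0.0528 to 0.279). Control replicate 3, which gave cherub its place among the members, is in this contrast too.

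Without the block, which leaves the pairing by replicate number out, counts of called members were small in every comparison of the rescues. Against control, 1 member was called higher and 1 lower in rescue K26A (0.3% and 3.14% of all genes). None was called in rescue WT, rescue Y303F or rescue HEBI (0.33%, 0.74% and 0.58% of all genes in either direction), where 4, 9 and 8 had an unadjusted p under 0.05 and DESeq2 called 1, 5 and 2 (1.3%, 2.93% and 1.55% of all genes). With the block 1, 9, 12 and 5 members were called in rescue WT, Y303F, K26A and HEBI against control (2.01%, 5.85%, 12% and 3.82% of all genes). Counts at an unadjusted p under 0.05, here and below, stand without the share over all genes. They are not a result about the members.

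Against HDAC3 shRNA, 1 member was called lower in rescue WT, 1 in rescue Y303F and 2 in rescue HEBI (0.16%, 0.17% and 0.74% of all genes). None was called higher (0.88%, 0.54% and 0.94% of all genes). None was called in rescue K26A (0.19% in either direction), where 5 had an unadjusted p under 0.05 and DESeq2 called 2 (0.601%). With the block, 25 members were called in rescue HEBI, 17 of them higher (9.56% of all genes called higher, 2.51% lower). The block called 15 in rescue Y303F (8.22%), 7 in rescue WT (9.31%) and 2 in rescue K26A (1.47%). The 17 included bxd, CR44930, CR44931, CR45559, CR43617, CR44504 and CR43264.

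Against rescue WT, edgeR called no member in rescue Y303F, rescue K26A or rescue HEBI (0.02%, 0.13% and 0.04% of all genes), where 3, 0 and 5 had an unadjusted p under 0.05 and DESeq2 called 0, 0 and 1 (0.4%, 0.871% and 0.28%). With the block CR43837 was called lower and CR45266 higher in rescue HEBI (0.32% and 0.29% of all genes). CR45266 was at a log2 fold change of 1.23 without the block (adjusted p = 0.856) and at 1.33 with it (adjusted p = 0.00325).

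Replicate numbers set many members apart. In replicates 3 and 4 the members took 0.138% to 0.195% of all counts, against 0.0531% to 0.107% in replicates 1 and 2, and without CR42862 0.0770% to 0.105% against 0.0388% to 0.0677%. By mean level, 67 members were higher in replicates 3 and 4 and 33 lower. All 12 libraries of replicates 3 and 4 lay above all 12 of replicates 1 and 2 for 17 members and below them for 4, beside 10.3% and 8.75% of all genes. The median log2 ratio, on CPM + 0.1, was 0.74 for members and 0.14 for all genes.

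The Hox cluster lncRNAs were among the members that differed between the numbers. The 4 bithorax complex members (bxd, iab8, iab4 and CR43617) were higher in replicates 3 and 4 in all 6 genotypes. So were the 7 members at the Antennapedia complex. The median log2 ratio was 1.96 for the bithorax complex and 1.82 for the Antennapedia complex. These Hox members were among 34 members that were higher in all 6 genotypes, while 14 members were lower in all 6. The share of all genes that did so was not counted. iab8 ran from 7.88 to 14.3 CPM in replicates 3 and 4, against 1.24 to 4.67 CPM in replicates 1 and 2. iab4 ran from 5.05 to 8.94 CPM, against 0.525 to 3.01 CPM in replicates 1 and 2. CR44931 (3R:6877678-6885278, -) had the largest ratio, a log2 of 2.19, with 4.71 to 13.3 CPM in replicates 3 and 4 against 0.926 to 4.24 CPM in replicates 1 and 2.

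The protein-coding Hox genes Ubx, abd-A, Abd-B and Antp were also higher in replicates 3 and 4 in all 6 genotypes, again without a share over all genes. abd-A was at 33.6 and 29.3 CPM in HDAC3 shRNA replicates 3 and 4, against 4.37 and 6.82 CPM in replicates 1 and 2. In control it was at 39.4 and 32.4 CPM in replicates 3 and 4, against 16.6 and 10.97 CPM in replicates 1 and 2. Ubx was at 18.6 and 17.6 CPM in HDAC3 shRNA replicates 3 and 4, against 2.86 and 3.56 CPM in replicates 1 and 2.

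Members inside introns were divided. Of 17, 7 had a higher mean in replicates 3 and 4, and 2 of these in all 6 genotypes, while 7 were lower in all 6. Among the members of every position, 34 were higher and 14 lower in all 6, with no share over all genes counted. The median log2 ratio of the intronic members was -0.28, against 1.28 for the 48 that share no exon and lie in no intron. The 4 members below in all 12 libraries, CR30055 (Sin3A intron), CR32027 (Indy intron), CR43961 (Ten-a intron) and CR44417 (Mapmodulin intron), are all intronic. CR30055 ran from 19.4 to 41.9 CPM in replicates 3 and 4, against 53.5 to 82.9 CPM in replicates 1 and 2. CR45102, 185 bases from Mnt, had the lowest ratio, a log2 of -1.88. CR31044, the mir-279 and mir-996 host, was among the steadiest, at 4.90 to 8.004 CPM over 24 libraries, as was CR42549 at 20.4 to 37.1 CPM.

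Early blastoderm genes were lower in replicates 3 and 4 in all genotypes but rescue K26A. The summed level of 10 of them, of which Sry-alpha and sala were at 0 throughout, averaged 1291 CPM in HDAC3 shRNA replicates 3 and 4, against 1864 in replicates 1 and 2, and in control 918 CPM in replicates 3 and 4, against 3797 in replicates 1 and 2. In rescue K26A, where the member ratio between the numbers was highest, it averaged 2324 CPM in replicates 3 and 4, against 2241 in replicates 1 and 2. The labels give 2-4 h for every library, and the part of embryo age within that window was not tested.

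**Figure D4:**
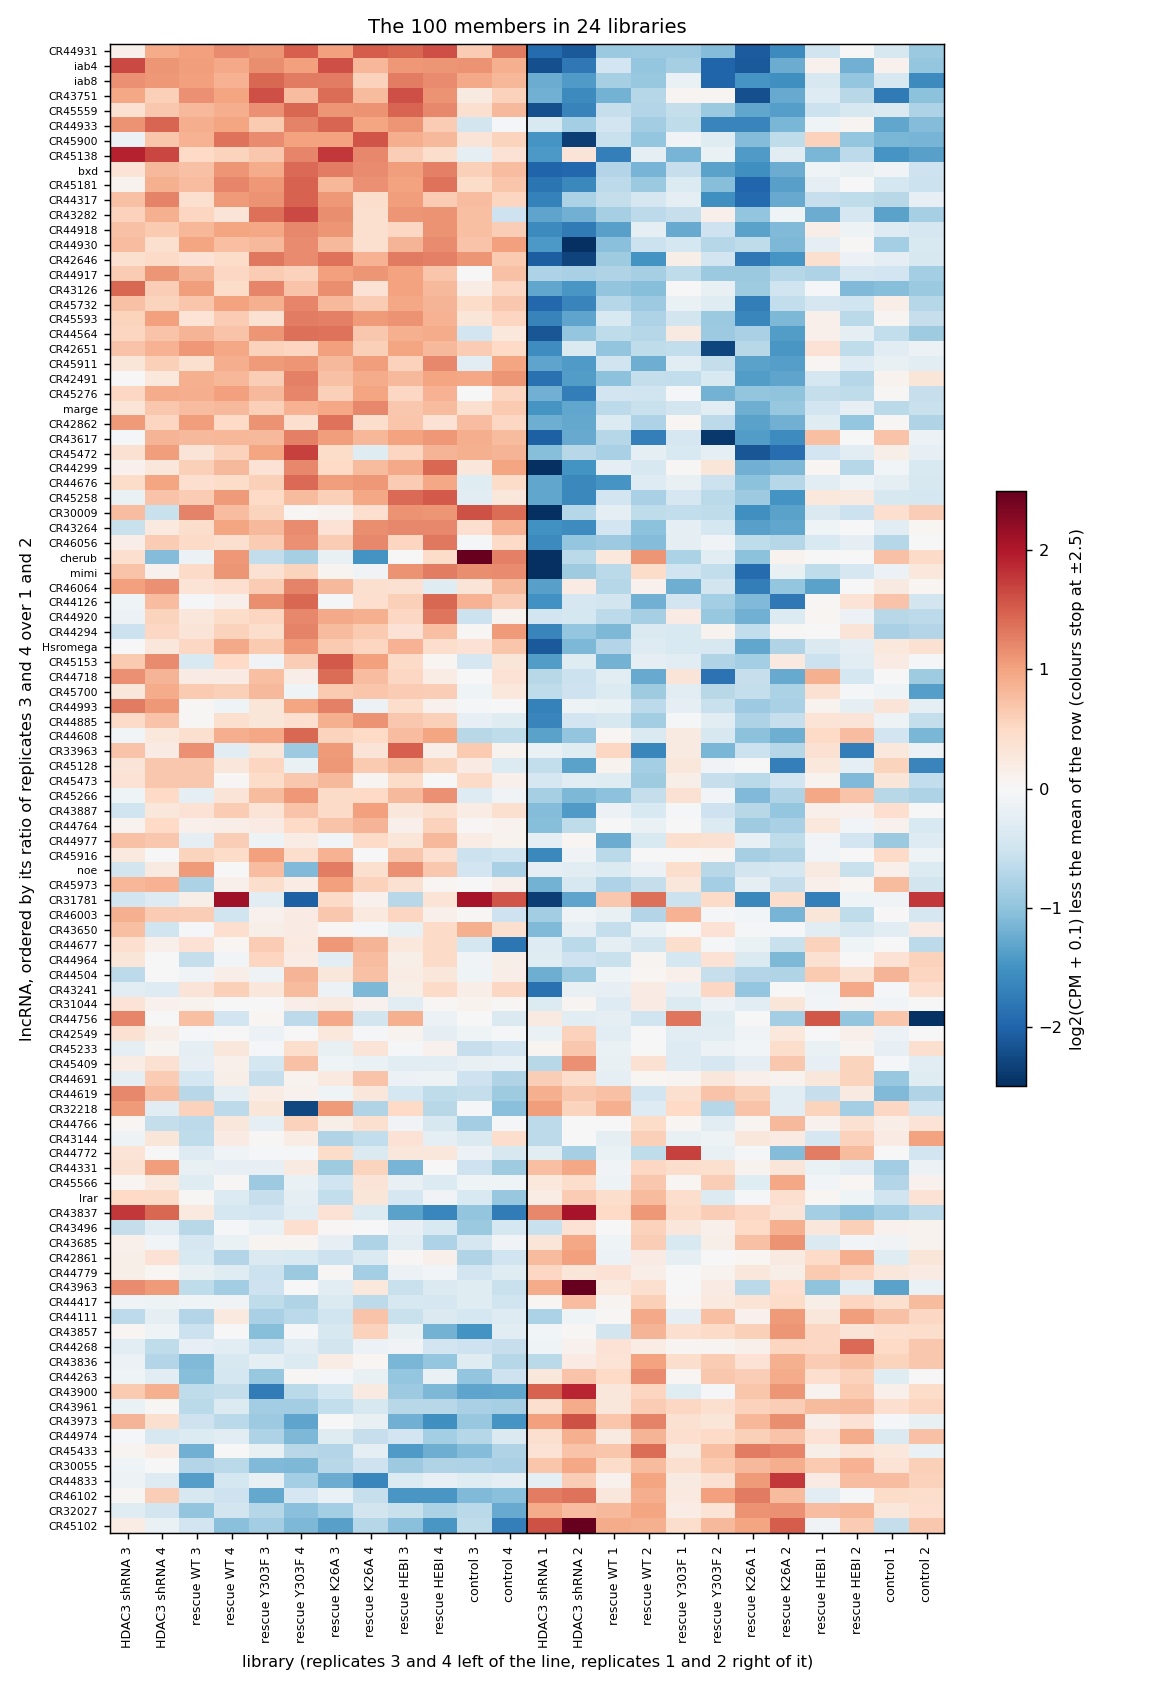
log2(CPM + 0.1) of the 100 members (rows, ordered by their ratio of replicates 3 and 4 over 1 and 2) in 24 libraries (columns, replicates 3 and 4 left of the line), each less its row mean, with colours that stop at ±2.5. Hox cluster members such as CR44931, iab4 and iab8 are at the top, high on the left, and CR30055, CR32027 and CR45102 are at the bottom, high on the right.

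The knockdown difference also varied with the replicate numbers. In replicates 3 and 4 the median log2 fold change of the members, HDAC3 shRNA against control, was 0.35, and in replicates 1 and 2 it was -0.57 (all genes 0.00 and -0.01). For 42 of 100 members it was positive in replicates 3 and 4 and negative in replicates 1 and 2, and for 0 the other way round, beside 1084 and 969 of 9442 genes tested in both. The difference between the sides was not tested. Within replicates 1 and 2 the fit called 21 members lower and 8 higher (14.5% and 3.65% of all genes), and within replicates 3 and 4 it called 1 lower and 7 higher (5.82% and 1.8%).

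bxd had 19.8 and 27.2 CPM in HDAC3 shRNA replicates 3 and 4, against 23.5 and 26.7 CPM in control. In replicates 1 and 2 it had 3.79 and 3.90 CPM in HDAC3 shRNA, against 14.6 and 10.9 CPM in control. The log2 fold change was -0.14 in replicates 3 and 4 (adjusted p = 0.692) and -1.75 in replicates 1 and 2 (adjusted p = 0.00276), and with all libraries -0.47 (adjusted p = 0.715; with the block -0.88, 0.0115, under 2-fold). For the 6 called higher members no HDAC3 shRNA library overlapped control, so they had to lie above control in both replicate pairs. CR44331 and CR44691 were not called in replicates 3 and 4 alone. The values of the 6 ran from a log2 fold change of 0.93 (CR44691, replicates 3 and 4) to 3.01 (CR43963, replicates 1 and 2).

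Within a genotype, replicates 3 and 4 exceeded replicates 1 and 2 by a member median log2 ratio of 1.20 in HDAC3 shRNA, 0.78 in rescue WT, 0.63 in rescue Y303F, 1.31 in rescue K26A, 0.42 in rescue HEBI and 0.19 in control. The same median over all genes ran from 0.086 to 0.13. In rescue HEBI against HDAC3 shRNA the member median was -0.03 in replicates 3 and 4 and 0.70 in replicates 1 and 2.

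**Figure D5:**
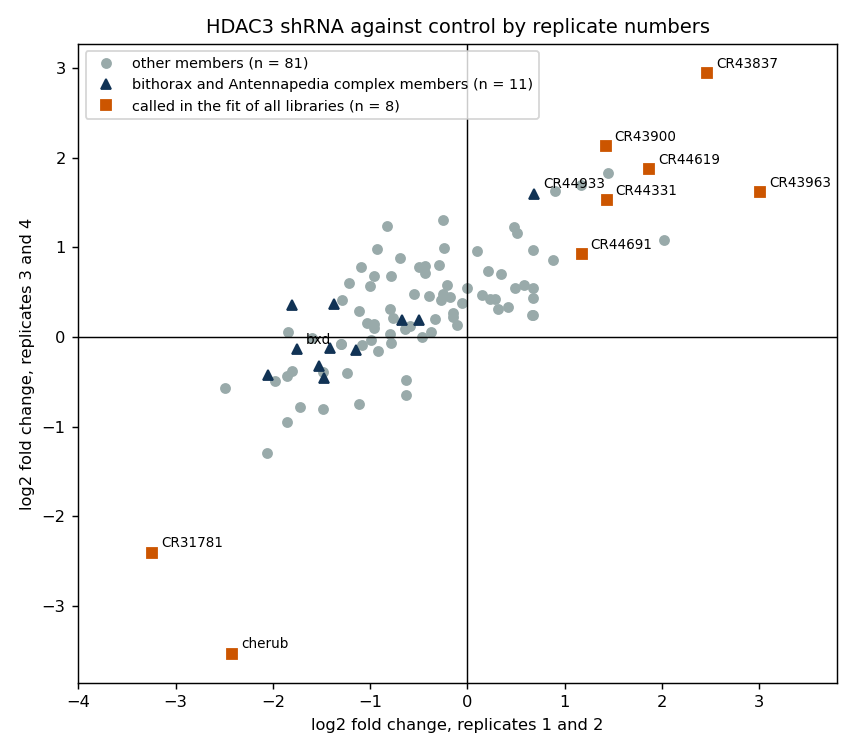
log2 fold change of HDAC3 shRNA against control for each member in replicates 1 and 2 (x axis) and in replicates 3 and 4 (y axis), with the 8 called members as squares and the 11 Hox complex members as triangles. The upper left quadrant holds 42 members and the lower right none, and the 6 called higher members lie at the upper right.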

How the data were processed

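RNA from 2-4 h embryos was made into TruSeq Stranded Total RNA libraries. The authors mapped reads to dm6 with STAR and deposited featureCounts gene counts, raw whole numbers. For tool versions, annotation release and strand setting no entry was found: not given in the sources used here. Symbols were paired for 17253 of 17559 identifiers (Ensembl 115, BDGP6.54). The 306 unpaired ones stayed in library sizes and tests and could include lncRNAs, since 185 reached the mean CPM of the last member.

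Tests used edgeR 4.0.16 under R 4.3.3 (TMM, filterByExpr, 10003 genes, quasi-likelihood F-tests, 1 mean per genotype, no block, 24 libraries, 12 contrasts, Benjamini-Hochberg over all tested genes). DESeq2 1.42.0 was an alternative. On simulated counts for HDAC3 shRNA against control (9841 genes), edgeR called 7, 30, 45 and 43 of the 50 altered by 2-, 4-, 8- and 16-fold, with 7 false calls among 9643. The simulated libraries were independent, without the replicate-number structure of the real ones, so these figures do not give the power or false calls here. A call also needs an estimated 2-fold change, which by itself limits the recovery of true 2-fold changes. Same-numbered libraries correlated at 0.184 to 0.797 after removing genotype means (60 pairs, median 0.615), and for 21 of 24 libraries the best match shared the number. Numbers were therefore taken to pair samples, but the main fit has no term for this pairing. The blocked fit, which has it, was an alternative, and its counts of calls are given beside those of the main fit. The pairing comes from the data, not from a label. No libraries agreed within sampling noise (36 pairs, lowest chi-square per gene 35.0).

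Members, gene lists and tests were chosen with earlier results of these data known. Named were the 10 most abundant, the called members whose groups did not overlap, up to 4 called per other contrast, those with a descriptive symbol, and those at the limit. Other genes were named after their values were seen. Sequences and promoter motifs were not analysed here.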

Additional observations from a re-analysis of the deposited data

Results flagged for a closer look

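In 144 groups of 4 libraries (the named members in each genotype), 5 held a library whose gap to the nearest other exceeded Dixon's 95% limit, 3.47% of groups where chance gives about 5%. CR43963 stood at 8.87 CPM in HDAC3 shRNA replicate 2, and cherub at 9.12 CPM in control replicate 3. cherub was also high at 0.753 CPM in rescue HEBI replicate 4. CR44331 stood at 1.58 CPM in rescue WT replicate 2, and noe at 3.01 CPM in rescue WT replicate 3.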

How the results depend on the processing

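No call changed direction under any alternative. For HDAC3 shRNA against control, the replicate block called 11 members higher and 11 lower, replicates 1 and 2 alone 21 lower, and replicates 3 and 4 alone 1 lower. Against control, the block called 1 in rescue WT, 9 in rescue Y303F, 12 in rescue K26A and 5 in rescue HEBI. Against HDAC3 shRNA it called 7 in rescue WT, 15 in rescue Y303F, 2 in rescue K26A and 25 in rescue HEBI, and 2 in rescue HEBI against rescue WT. Replicates 1 and 2 alone called, against control, 1 in rescue WT, 13 in rescue K26A and 1 in rescue HEBI, against HDAC3 shRNA 4 in rescue WT, 16 in rescue Y303F and 29 in rescue HEBI, and 2 in rescue HEBI against rescue WT. Replicates 3 and 4 alone called 1 in rescue Y303F against control, and 4 in rescue Y303F and 7 in rescue HEBI against HDAC3 shRNA. DESeq2 called 1 in rescue WT, 5 in rescue Y303F and 2 in rescue HEBI against control, 3 in rescue WT, 3 in rescue Y303F, 2 in rescue K26A and 6 in rescue HEBI against HDAC3 shRNA, and 1 in rescue HEBI against rescue WT. DESeq2's size factors in edgeR called 1 in rescue Y303F against control. Library totals alone called 1 in rescue K26A against control, 0 in rescue WT against HDAC3 shRNA and 1 in rescue HEBI against rescue WT. Without the filter, 1 in rescue K26A against control, 0 in rescue WT and 0 in rescue Y303F against HDAC3 shRNA were called. Many counts in this section stand without the share over all genes, so they show how calls moved with the setting. They are not a result about the members. The cause was not tested.

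Leaving out 1 library gave 4 to 7 members higher and 0 to 3 lower in HDAC3 shRNA against control. Against control it gave 0 to 1 in rescue WT, 0 to 1 in rescue Y303F, 0 to 2 in rescue K26A and 0 to 0 in rescue HEBI. Against HDAC3 shRNA it gave 0 to 1 in rescue WT, 0 to 2 in rescue Y303F, 0 to 0 in rescue K26A and 2 to 3 in rescue HEBI. Against rescue WT it gave 0 to 0 in rescue Y303F and rescue K26A and 0 to 1 in rescue HEBI. Library totals alone moved the median log2 fold change of HDAC3 shRNA against control to -0.19 over all genes and -0.12 over members, from 0.01 and 0.08. With 9.99 to 26.6 M counts per library, members near 1 CPM rested on few counts, which limits how small a change could be detected. Ranking by TMM-scaled CPM kept all 100 members and by genotype medians 98.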
